A study of Mus musculus with 12 samples.

Results

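The genes described here mark intestinal crypt stem cells or are known targets of the Wnt pathway, and were read in colon and stomach of mice lacking Spdef. The set was a list of 10 names: Lgr5, Ascl2, Axin2, Olfm4, Sox9, Cd44, Ephb2, Ephb3, Myc and Lrig1. Of these, 8 had a probe set, 14 probe sets in all, among 11807 genes and 22626 probe sets; Olfm4 and Ephb2 had none under their names in the annotation used, and their levels were not analysed here. The study put RNA from colon and stomach of 16 week old C57BL/6 mice on 12 Affymetrix HT Mouse Genome 430 arrays, on which a set of short probes reads each transcript. There were 6 groups of 2 arrays: colon of Spdef knockout (KO), heterozygous (HET) and wild type (WT) mice, and stomach of KO, HET and WT mice. Spdef encodes a transcription factor of goblet cells and other cells that secrete mucus. The labels give no treatment, and do not state the allele, the sex of the mice or whether the arrays of a group came from separate animals. The p-values therefore measure only the spread between these arrays, which may be technical.

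In the crypts of the intestine, Wnt ligands and R-spondins act on Frizzled, LRP and LGR receptors, which spares beta-catenin from degradation and lets it drive TCF target genes at the crypt base. The stem cells there carry Lgr5 and Ascl2, and the surrounding progenitors keep several Wnt targets on until they leave the crypt and differentiate. In the stomach, Lgr5 is known from cells at the base of the glands. Axin2 is a target that feeds back on the pathway, so its transcript is often used as a readout of Wnt signalling.

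The 250 bases before the gene start were read for 7 of the 10 named genes from the RefSeq promoter table, build GRCm38.p6: Ascl2, Axin2, Olfm4, Cd44, Ephb2, Ephb3 and Lrig1. They are shown for Cd44, Axin2 and Ephb3, which had large differences between the tissues in opposite directions. Capitals mark the letters CTTTG or CAAAG, the shared core of the TCF motif read on either strand, a search chosen after the longer motif had been looked for.
Cd44, chr2:102901666-102901915, minus strand: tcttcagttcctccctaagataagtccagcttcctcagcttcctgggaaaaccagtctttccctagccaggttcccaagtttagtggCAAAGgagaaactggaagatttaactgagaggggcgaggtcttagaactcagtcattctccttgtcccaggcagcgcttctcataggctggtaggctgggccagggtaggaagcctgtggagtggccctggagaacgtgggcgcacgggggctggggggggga
Axin2, chr11:108920099-108920348, plus strand: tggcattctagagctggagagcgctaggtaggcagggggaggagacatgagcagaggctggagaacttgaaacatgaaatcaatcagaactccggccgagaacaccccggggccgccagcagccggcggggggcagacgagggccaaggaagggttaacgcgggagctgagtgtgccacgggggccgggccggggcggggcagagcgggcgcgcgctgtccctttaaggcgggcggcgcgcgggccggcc
Ephb3, chr16:21204545-21204794, plus strand: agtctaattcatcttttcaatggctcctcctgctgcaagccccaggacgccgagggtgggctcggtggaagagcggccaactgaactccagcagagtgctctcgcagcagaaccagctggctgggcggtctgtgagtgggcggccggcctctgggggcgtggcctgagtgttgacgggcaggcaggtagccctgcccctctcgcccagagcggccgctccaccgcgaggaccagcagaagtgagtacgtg

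The longer motif, CTTTG followed by A or T and again by A or T, read on either strand, was in 0 of the 7 windows, and in 14.8% of 32851 promoter windows of the same length. The core, which the longer motif contains, was in 1 of the 7, that of Cd44, where it begins 163 bases before the start, against 48.6% of all windows. The 7 windows held 54.0% to 71.6% G and C bases, against a median of 52.4% over all windows. A match of letters is a description of the window and not a binding site.

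The text gives levels as log2(intensity + 16), quantile normalized over the arrays, and a difference of 1 on this scale is a doubling. The added constant makes folds of dim genes too small. Testing in a tissue required a level of 6.53, the 40th percentile, in at least 2 of the 6 arrays there. The number of arrays sets the precision.

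Of the 6 colon arrays, 2 stood apart most, those labelled colon WT 2 and colon KO 2. Spdef lay at 9.08 and 9.25 in colon KO, at 10.27 and 9.81 in colon HET, and at 10.97 and 8.74 in colon WT, so the array labelled colon WT 2 read below both KO arrays. The sources used here do not say whether the Spdef probes fall within the deleted sequence. In stomach Spdef lay at 8.86 and 8.63 in KO, at 9.06 and 8.94 in HET, and at 9.19 and 8.96 in WT. Both stomach KO arrays thus lay below both WT arrays, as for 16.7% of tested genes, and below both HET arrays. The array labelled colon WT 2 had a mean correlation of 0.888 with the other colon arrays, which had 0.931 to 0.956. The mean level of 8 small intestine genes was 12.54 on it and 6.22 to 8.01 on the other 5 colon arrays, and that of 3 Paneth cell genes was 12.69 on it and 9.65 to 10.71 on the others. The Paneth cell mean rested on Defa31, at 13.87 on it and 4.14 to 8.10 on the others. Defa31 passed the filter through the WT arrays alone. Mmp7, at 10.57, lay within the range of the others, and Itln1, at 13.63, had its lowest colon level there. On colon WT 2 the 8 colonocyte genes averaged 7.79 and the 7 smooth muscle genes 9.67, against 10.18 to 11.41 and 10.53 to 11.39. Car1, a carbonic anhydrase of colonocytes, lay at 6.65 on it and at 13.50 to 14.01 on the other 5, and Hoxa10, a homeobox gene of the hindgut, at 4.81 on it and at 7.74 to 9.51 on the others. Other genes of the list differed less. Guca2a lay at 13.78 on colon WT 2 and 13.93 to 14.19 on the others, and Hoxb13, at 4.31, lay within their range. Car4, at 11.19, and Slc26a3, at 11.08, lay below the other 5 but above all 6 stomach arrays. The colonocyte mean of colon WT 2 thus went against its label, and from which part of the gut its RNA came was not tested. On colon KO 2, 18 proliferation genes averaged 9.22, against 8.31 to 8.48 on the other colon arrays. Cela1, the 1 gene tested from an exocrine pancreas list, lay at 11.81 on it, against 7.74 to 10.25. Cela1 also lay at 9.65 to 10.52 on the stomach arrays. On colon KO 2 the 4 adipose genes averaged 7.37, against 9.50 to 10.42, and the small intestine genes 6.22, against 7.54 to 12.54. Of the latter, Slc10a2 lay at 4.26, against 9.56 to 12.48. Hoxb13 lay at 10.81 on colon KO 2 and 8.24 on colon HET 2, and at 4.24 to 4.39 on the remaining colon arrays. Aqp8 lay at 12.19 and 12.36 on the same arrays, and at 5.54 to 10.66 on the rest. Colon arrays of 1 genotype thus differed in these genes, whose part in the genotype comparisons was not tested. The tissues were told apart by 10 gastric gland and surface cell genes, at 5.26 to 5.48 on the colon arrays and 13.78 to 13.95 on the stomach arrays. The submitters' processing notes name RMA for both stomach KO arrays and for colon WT 1, and MAS5 for the rest, so in stomach this note and the KO genotype cannot be told apart. Without colon WT 2, colon KO and HET arrays noted as MAS5 are set against colon WT 1, noted as RMA. Colon against stomach in KO likewise sets MAS5 against RMA by these notes. In these comparisons, too, the note cannot be told apart from genotype or tissue.

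**Figure D1:**
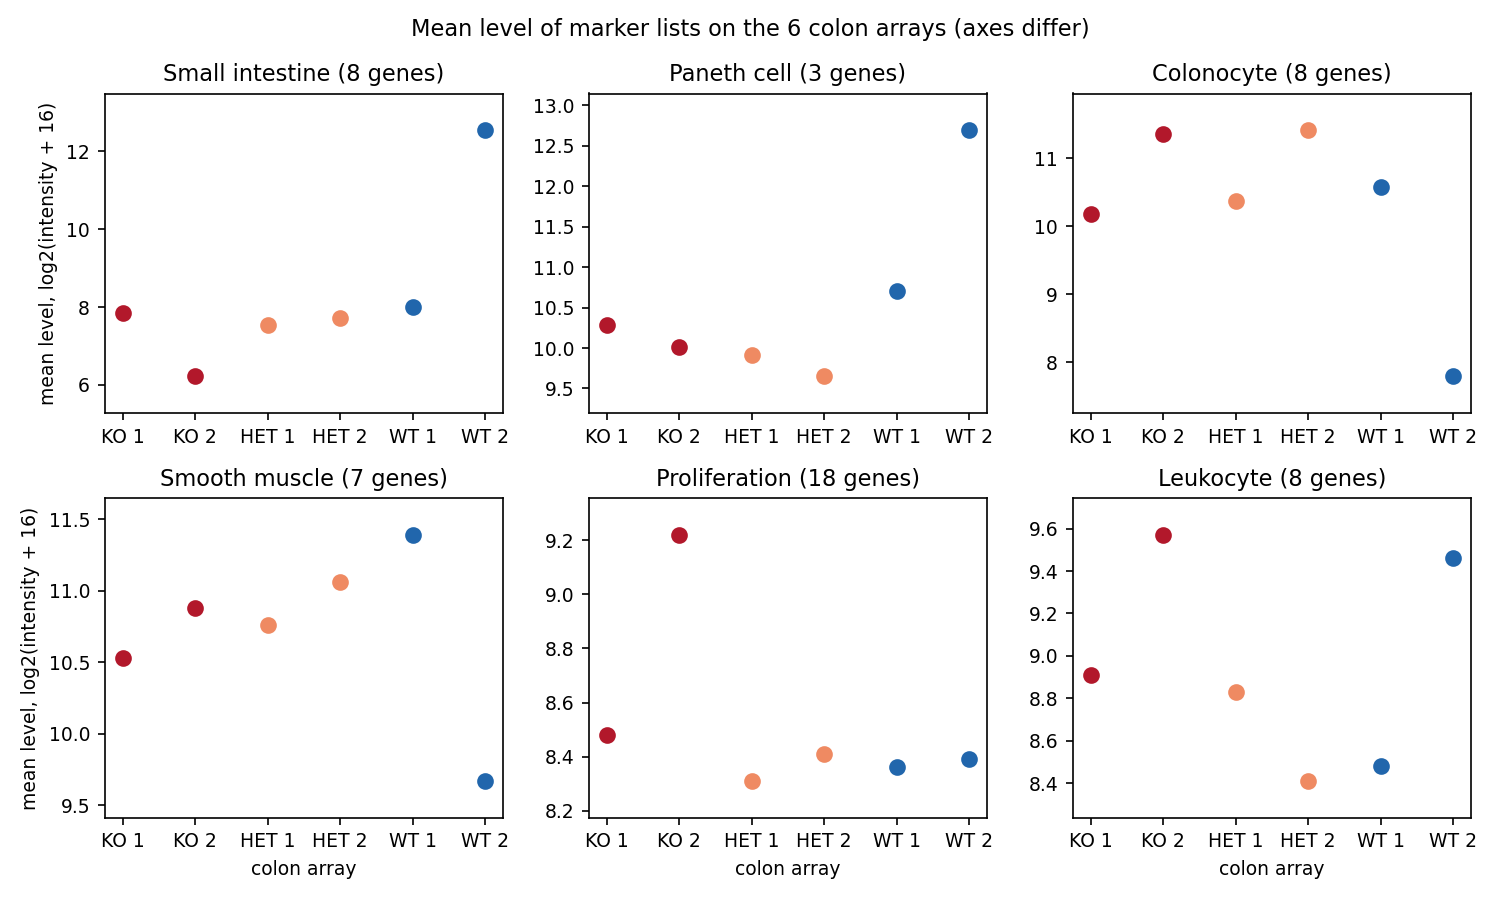
Mean level of 6 marker lists, as log2(intensity + 16), on each of the 6 colon arrays, with KO, HET and WT from left to right and a separate vertical axis per list. The array labelled colon WT 2 stands apart in the small intestine, Paneth cell, colonocyte and smooth muscle lists, and colon KO 2 in the proliferation list at 9.22. In the Paneth cell list this rests on Defa31 alone.

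Colon and stomach differed in 6 of the 8 genes, over the 3 genotypes. Cd44, Axin2 and Ascl2 were higher in colon, and Ephb3, Lgr5 and Lrig1 were lower in colon. Sox9 and Myc did not pass the test. The 6 calls stand against a background of 48.8% of 8393 genes tested (limma, adjusted p under 0.05), of which 21.4% were higher and 27.3% lower in colon. Ascl2 and Axin2 passed the filter through colon alone, and in the other 6 genes there were 4 calls. In whole tissue, a larger share of cells that carry a transcript and more of it per cell cannot be told apart. Some epithelial marker genes moved with tissue as well, and 5 of 8 were called higher in colon. These were the claudins Cldn3 and Cldn7, with fitted differences of 7.35 and 7.09, Vil1 by 3.56, Epcam by 2.07 and Krt8 by 0.19. Both claudins lay under the filter level on all 6 stomach arrays and passed the filter through colon alone, so their values are not sizes. Krt19, Cdh1 and Krt18, at 0.06, -0.17 and -0.42, did not pass. The 18 proliferation genes averaged 8.31 to 9.22 in colon and 7.82 to 8.16 in stomach. Their part in the differences below was not tested.

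**Figure D2:**
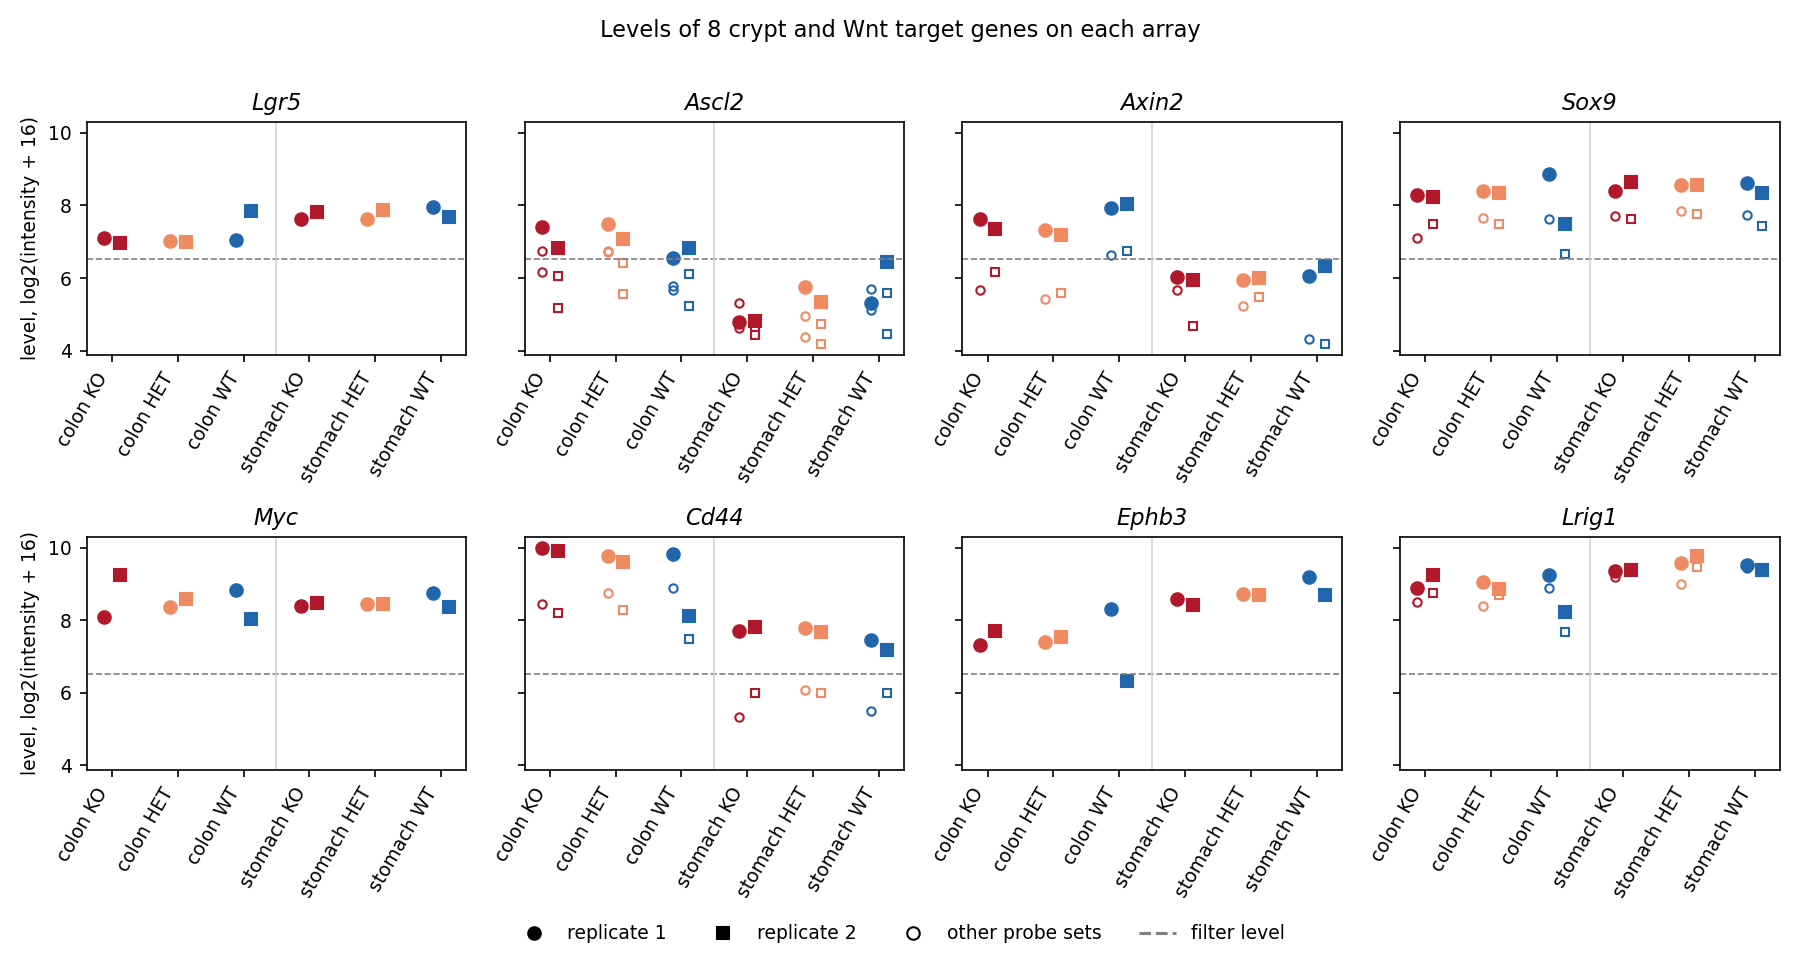
Level of each of the 8 genes, as log2(intensity + 16), on every array, with colon KO, HET and WT left of stomach KO, HET and WT. Filled points are the probe set used for the gene, open points its other probe sets, circles replicate 1 and squares replicate 2, and the dashed line is the filter level of 6.53. Cd44 and Axin2 lie higher on all colon arrays, and Ephb3 and Lrig1 lower.

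Lgr5, a receptor for R-spondins and the classical marker of crypt base stem cells, was read by 1 probe set, on chromosome 10. Its colon levels were 7.11 and 6.96 in KO, 7.02 and 6.99 in HET, and 7.05 and 7.86 in WT. Its stomach levels were 7.63 and 7.82 in KO, 7.62 and 7.88 in HET, and 7.96 and 7.67 in WT. Of the colon arrays, only the array labelled colon WT 2 reached the stomach range, and the other 5 lay below all 6 stomach arrays. Colon was lower than stomach by a log2 difference of -0.60 (SE 0.15, adjusted p = 0.0102 in limma), which is 1.51-fold. Without colon WT 2 it was -0.73 (adjusted p = 0.000753).

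Ascl2, a transcription factor of crypt stem cells, was dim and was read by 3 probe sets on chromosome 7. The brightest lay in colon at 7.41 and 6.83 in KO, 7.49 and 7.08 in HET, and 6.56 and 6.82 in WT. In stomach the same probe set lay at 4.80 and 4.82 in KO, 5.75 and 5.33 in HET, and 5.32 and 6.45 in WT, under the filter level on all 6 arrays. The tissues did not overlap, and the difference was at least 0.50 against the filter level, or at least 1.41-fold, with a fitted difference of 1.62 (SE 0.23, adjusted p = 0.000417 in limma). The other 2 probe sets had colon means of 6.16 and 5.90, under the filter level, and give no fold. The brightest of the 3 carries the suffix of probe sets that can match several transcripts.

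Axin2, the scaffold of the beta-catenin destruction complex that Wnt signalling itself induces, had 2 probe sets on chromosome 11. The brighter lay in colon at 7.63 and 7.34 in KO, 7.33 and 7.19 in HET, and 7.93 and 8.04 in WT. Its stomach levels were 6.04 and 5.94 in KO, 5.94 and 6.01 in HET, and 6.05 and 6.32 in WT, all under the filter level. Every colon array therefore lay above every stomach array, with both colon WT arrays on top. The tissue difference was at least 1.05 against the filter level, or at least 2.07-fold, with a fitted difference of 1.53 (SE 0.12, adjusted p = 9.69e-06 in limma).

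Sox9, a transcription factor of crypt progenitors and Paneth cells, lay in colon at 8.30 and 8.24 in KO, 8.40 and 8.33 in HET, and 8.88 and 7.50 in WT. In stomach it lay at 8.39 and 8.64 in KO, 8.57 and 8.56 in HET, and 8.63 and 8.33 in WT. The stomach arrays stayed within a narrow band, while the colon WT arrays held both the highest and the lowest value of all 12. The tissue difference was -0.24 (SE 0.21, 95% interval -0.71 to 0.22, adjusted p = 0.355 in limma). It was -0.01 without colon WT 2, and its other probe set gave -0.35, also without a call.

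Myc, a transcription factor that drives growth and proliferation, lay in colon at 8.10 and 9.26 in KO, 8.37 and 8.60 in HET, and 8.83 and 8.04 in WT. In stomach it lay at 8.40 and 8.48 in KO, at 8.46 on both HET arrays, and at 8.76 and 8.38 in WT. Its highest level was on colon KO 2, the array with the highest proliferation genes, whose part in the Myc level was not tested. The tissue difference was 0.04 (SE 0.21, 95% interval -0.43 to 0.52, adjusted p = 0.877 in limma).

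Cd44, a cell surface receptor for hyaluronan that is a Wnt target in crypts, was higher in colon and was read by 2 probe sets. Its colon levels were 10 and 9.92 in KO, 9.77 and 9.62 in HET, and 9.84 and 8.12 in WT. Its stomach levels were 7.71 and 7.81 in KO, 7.80 and 7.68 in HET, and 7.46 and 7.18 in WT. All colon arrays were above all stomach arrays, with the array labelled colon WT 2 far below the other 5. The difference was 1.94 (SE 0.25, adjusted p = 0.000183 in limma), which is 3.83-fold, and 2.22 without colon WT 2. The other probe set, under the filter level in stomach, gave at least 1.81, or at least 3.51-fold.

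Ephb3, a receptor tyrosine kinase that helps position cells along the crypt, ran the other way, with 1 probe set, on chromosome 16. Its colon levels were 7.31 and 7.71 in KO, 7.40 and 7.55 in HET, and 8.31 and 6.32 in WT. Its stomach levels were 8.59 and 8.42 in KO, 8.72 and 8.71 in HET, and 9.19 and 8.70 in WT. All colon arrays lay below all stomach arrays, and the colon WT arrays lay at both ends of the colon range. The difference was -1.29 (SE 0.29, adjusted p = 0.00541 in limma), which is 2.44-fold lower in colon, and -0.96 without colon WT 2.

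Lrig1, a membrane protein that dampens ErbB receptor signalling and marks intestinal stem cells, had 2 probe sets on chromosome 6. The brighter lay in colon at 8.89 and 9.24 in KO, 9.05 and 8.85 in HET, and 9.25 and 8.22 in WT. In stomach it lay at 9.37 and 9.40 in KO, 9.58 and 9.76 in HET, and 9.53 and 9.38 in WT. The tissues did not overlap, and the smallest gap was between colon WT 1 and stomach KO 1. Colon was lower by -0.59 (SE 0.17, adjusted p = 0.0167 in limma), or 1.5-fold, and by -0.42 without colon WT 2. The other probe set gave -0.83, also called.

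Across the 8 genes, all 6 colon arrays were above all 6 stomach arrays in 3 genes, against a background of 12.3% of genes tested, and below them in 2, against 17.7%. Within a single genotype fewer genes passed. In KO mice Ascl2, Axin2 and Cd44 were higher in colon, 3 of 8 genes against a background of 22.9%. The same 3 names passed in HET mice, where 22.2% of genes passed. In WT mice Axin2 and Cd44 were higher and Ephb3 lower, against 27.3%. In all counts of this paragraph, Ascl2 and Axin2 had passed the filter through colon alone, which favoured their direction. Among the higher genes that left Cd44 alone. Without the array labelled colon WT 2, whose spread enters every fit, 5 genes passed in KO (background 31.7%), 6 in HET (31.0%) and 3 in WT (26.1%). In WT the lower gene was then Lgr5, with Ephb3 at -0.63 (adjusted p = 0.097).

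**Figure D3:**
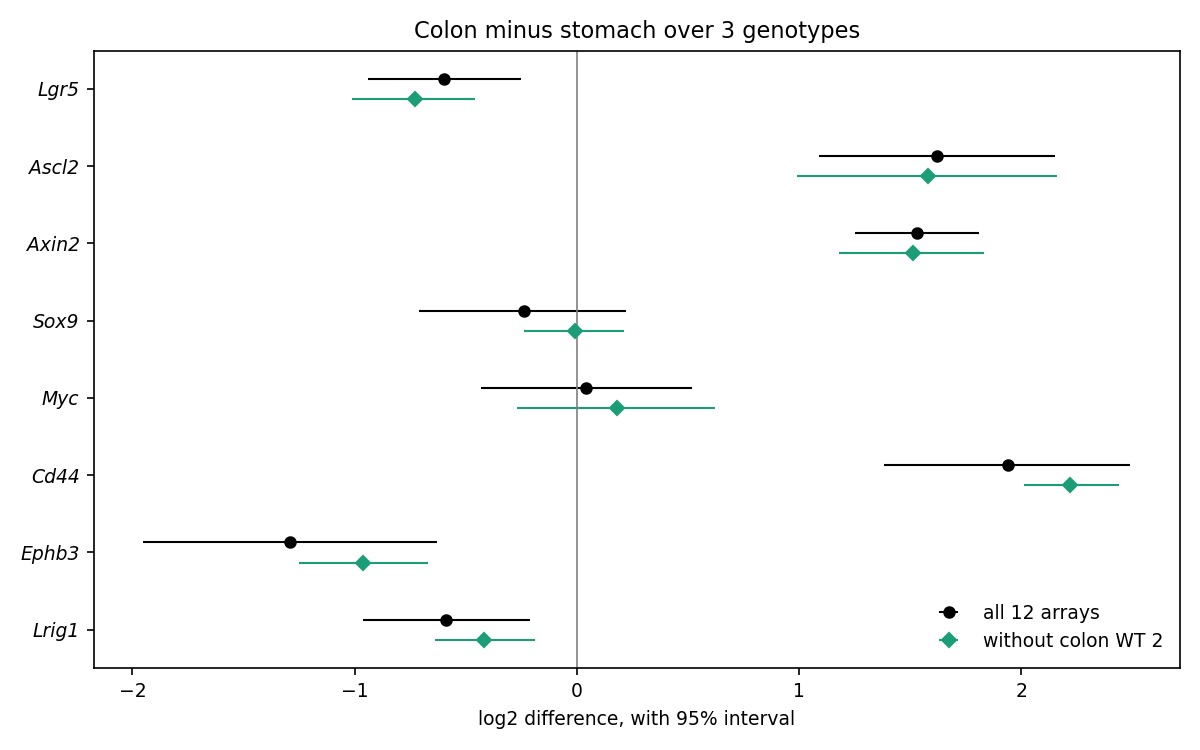
Log2 difference between colon and stomach over the 3 genotypes for each of the 8 genes, with 95% intervals, over all 12 arrays (black circles) and without colon WT 2 (green diamonds). Ascl2, Axin2 and Cd44 lie above 0, Lgr5, Ephb3 and Lrig1 below it, and Sox9 and Myc span it. Ascl2 and Axin2 were under the filter level in stomach, so their plotted values are fitted differences.

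Loss of Spdef in colon gave no call among the 8 genes. In KO against WT colon, 0 of 8 passed (background 0.0505% of 7913 genes, limma), and 2 had an unadjusted p under 0.05 (background 11.2%). In HET against WT colon, 0 of 8 passed (background 0.0253%), and 1 had an unadjusted p under 0.05 (background 9.62%). Both comparisons use the same WT arrays, so they are not independent. In KO against HET colon 0 of 8 passed (background 0.0253%), 0 had an unadjusted p under 0.05 (background 4.11%), and the 8 differences lay between -0.17 for Ascl2 and 0.27 for Cd44. The median absolute difference of the 8 genes was 0.37 in KO and 0.33 in HET against WT, against 0.23 and 0.22 over all genes tested.

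Axin2 was the gene whose 4 KO and HET colon arrays all lay below both WT arrays, a pattern that 6.13% of tested genes showed. The KO minus WT difference was -0.50 (SE 0.21, 95% interval -0.99 to -0.02, unadjusted p = 0.0434, adjusted p = 0.439 in limma). The HET minus WT difference was -0.73 (SE 0.21, 95% interval -1.22 to -0.25, unadjusted p = 0.00741, adjusted p = 0.44). Its second probe set reached the filter level in colon on both WT arrays alone, so its order there adds no support. The levels were 5.66 and 6.17 in KO, 5.41 and 5.58 in HET, and 6.63 and 6.75 in WT. In stomach, all under the filter level, this probe set was lowest in WT, at 4.32 and 4.18. Neither probe set passed, and colon WT 1 and colon WT 2 lay close together for this gene. Without colon WT 2 the differences were -0.45 in KO and -0.68 in HET, with adjusted p-values of 0.577 and 0.512.

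Ascl2 was the gene whose 4 KO and HET colon arrays all lay above both WT arrays, as 11.5% of tested genes did. The lowest KO array stood at 6.83 and the highest WT array at 6.82, so the separation was slight. The differences were 0.43 in KO (SE 0.41, adjusted p = 0.684 in limma) and 0.60 in HET (SE 0.41, adjusted p = 0.609). In the second probe set the KO minus WT difference was 0.02, with arrays that overlapped. Its HET minus WT difference was 0.63 (adjusted p = 0.7 in limma), with both HET arrays above both WT arrays, as for 22.3% of tested genes. This probe set reached the filter level only on colon KO 1 and colon HET 1, at 6.74 and 6.72.

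For the other 6 genes, the colon result turned on the array labelled colon WT 2. It was the lowest of the 6 colon arrays for 5 of the 8 genes (Sox9, Cd44, Ephb3, Myc and Lrig1), as it was for 34.1% of tested genes. It was the highest for Lgr5 and Axin2, as for 22.8%. Cd44 was 0.98 higher in KO than in WT colon over all arrays (SE 0.43, unadjusted p = 0.0466, adjusted p = 0.444 in limma) and 0.12 higher without that array, where the adjusted p was 0.855. In HET its difference was 0.71 with that array and -0.14 without it. The other Cd44 probe set gave 0.14 in KO over all arrays, where the WT levels were 8.88 and 7.49.

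Ephb3 had a KO minus WT difference of 0.19 (SE 0.51) over all arrays and -0.80 without colon WT 2. In the latter fit colon WT 1 was the only WT array, so the spread within WT colon could not be estimated. Sox9 had 0.08 over all arrays and -0.61 without colon WT 2. Lrig1 had 0.33 and then -0.18, and Myc 0.25 and then -0.15. Lgr5 had -0.42 over all arrays, since colon WT 2 held its highest colon level, and -0.01 without it. In HET the values without that array were -0.84 for Ephb3, -0.51 for Sox9, -0.34 for Myc, -0.30 for Lrig1 and -0.04 for Lgr5.

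The count of signs turned with that array as well. With all arrays, 6 of the 8 genes had a positive difference in KO and 6 in HET. Without colon WT 2 the positive differences were 2 in KO and 1 in HET. That comparison still called 0 of the 8 genes in KO (background 0.303%) and 0 in HET (background 0.0758%). With colon WT 2 as the only WT array, Sox9, Cd44, Ephb3 and Lrig1 were called higher in KO (4 of 8, background 12.2%), and in HET those 4 higher and Lgr5 lower (5 of 8, background 13.6%). In both fits, with colon WT 1 or colon WT 2 alone, the lone WT array is assumed to vary like the arrays of the other groups. Without colon KO 2, 0 of the 8 genes passed in KO against WT colon, and the differences were 1.02 for Cd44, 0.71 for Ascl2, 0.15 for Lrig1, 0.11 for Sox9, -0.01 for Ephb3, -0.33 for Myc, -0.34 for Lgr5 and -0.36 for Axin2. Myc and Ephb3 thus turned in sign without that array.

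**Figure D4:**
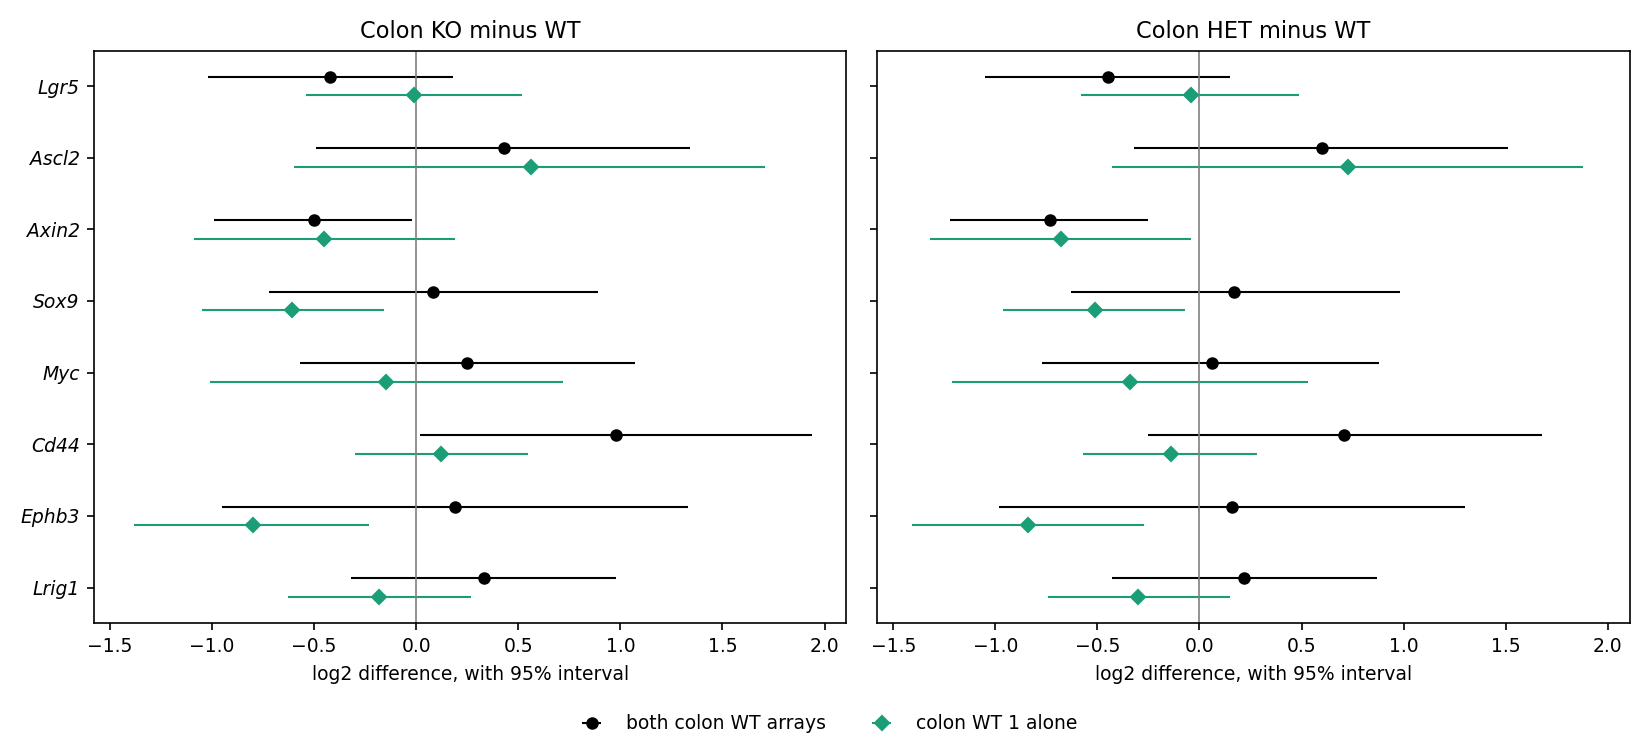
Log2 difference of KO minus WT colon (left) and HET minus WT colon (right) for the 8 genes, with 95% intervals, with both colon WT arrays (black circles) and with colon WT 1 alone (green diamonds). Cd44, Ephb3, Sox9, Lrig1 and Myc move down without the array labelled colon WT 2, Lgr5 moves up to near 0, and Axin2 and Ascl2 move least. With colon WT 1 alone, the intervals take the spread within WT colon from the other groups. Colon WT 1 is the only colon array noted as RMA.

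In stomach, 6 of the 8 genes reached the filter level, all but Ascl2 and Axin2, and none of the 6 passed the test between genotypes in limma. In KO against WT 0 of 6 passed (background 0.0127% of 7858 genes) and 0 had an unadjusted p under 0.05 (background 3.56%). In HET against WT 0 passed (background 0%) and 0 had an unadjusted p under 0.05 (background 2.20%), and in KO against HET 0 passed (background 0.0127%) and 0 had one (background 1.86%). The median absolute difference in KO was 0.11 over the 6 genes and 0.15 over all genes tested.

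The largest stomach differences in KO were those of Cd44 and Ephb3, in opposite directions. Cd44 had a KO minus WT difference of 0.44 (SE 0.43, 95% interval -0.52 to 1.40, adjusted p = 1 in limma), and its 4 KO and HET arrays all lay above both WT arrays, as for 9.30% of tested genes. Ephb3 had -0.44 (SE 0.51, 95% interval -1.58 to 0.70, adjusted p = 1), with both KO arrays below both WT arrays, as for 16.7%. The other 4 genes lay between -0.14 for Myc and 0.04 for Sox9. Without colon WT 2, whose spread enters the stomach fits, Cd44 had the same difference with an SE of 0.15 (95% interval 0.09 to 0.79, unadjusted p = 0.0188, adjusted p = 0.787) and Ephb3 the same with 0.21 (95% interval -0.91 to 0.02, adjusted p = 0.861). Cd44 was then the 1 gene of 6 with an unadjusted p under 0.05 in KO (background 5.69%), and the 1 of 6 in HET (background 3.45%), where it had 0.42 (unadjusted p = 0.0224, adjusted p = 1 in limma). Other cell markers differed between these stomach groups: 7 squamous forestomach genes averaged 4.83 to 5.12 in KO, 6.55 to 10.12 in HET and 7.89 to 8.79 in WT, and 4 adipose genes 8.40 to 8.41, 8.69 to 9.10 and 9.17 to 9.45. Their part in the stomach values was not tested.

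The KO minus WT difference was also compared between colon and stomach for the 6 genes tested in both. None passed in limma, as none of 7378 genes did (background 0%), and 0 of the 6 had an unadjusted p under 0.05 (background 4.26%). The values lay between -0.33 for Lgr5 and 0.63 for Ephb3, and without colon WT 2 between -0.64 for Sox9 and 0.08 for Lgr5. With that array as the only colon WT array, 2 of the 6 passed, Cd44 and Ephb3 (background 4.65%).

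The rest of the pathway was read from 7 lists of 119 genes, of which 101 had a probe set and 60 were tested between the tissues, where 48.8% of all genes tested were called. Of the called genes named below, Wnt4, Wnt11, Fzd3, Tle2, Tnfrsf19, Msi1, Sox2 and Cckbr passed the filter through stomach alone. Fzd5, Cdx1 and Vdr passed it through colon alone. The filter thus favoured the direction of these genes in advance, and their calls give that direction no separate support. Among ligands, 2 of 3 tested were lower in colon, Wnt4 and Wnt11, at -1.11 and -0.42 or beyond, since their colon means lay under the filter level. Among receptors, 4 of 9 were higher and 3 lower in colon. Fzd4, a Frizzled receptor, had -2.45 and Fzd6 -1.41, Fzd3 had -0.55 or beyond, and Fzd5 at least 0.21. Of the 2 secreted inhibitors tested, Dkk3 was higher in colon by 0.56.

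Inside the cell, 5 of 17 genes of signal transduction and the TCF complex were higher and 3 lower in colon, a share near that of all genes. Tcf7l2, the main TCF factor of intestinal epithelium, was higher by 1.29, and the co-repressor Tle4 by 1.18. Dvl1, a Dishevelled relay protein, had -1.10 and the co-repressor Tle2 -0.78 or beyond. Of 13 other Wnt targets tested, 4 were higher and 3 lower in colon, also a share near that of all genes. Cdx1, a homeobox factor of the intestine, was higher by at least 3.29 and Ets2 by 1.49, while Tnfrsf19, a receptor of the TNF family, had -1.62 or beyond and Id2 -1.40.

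Of 9 other crypt and stem cell markers, 3 were higher and 5 lower in colon. Vdr, the vitamin D receptor, was higher by at least 3.69 and Hopx by 2.89. Phlda1 had -2.10 and Msi1, an RNA-binding protein of progenitors, -1.05 or beyond. Of 7 gastric gland progenitor genes, 5 were lower and 1 higher in colon. Bhlha15, a factor of chief cells, had -2.92, Sox2, a foregut factor, -1.47 or beyond and Runx1 -1.32 or beyond. Cckbr, the gastrin receptor, was called lower with both tissue means under the filter level, so no size is given. Adjusted p-values of the pathway genes named here ran from 5.82e-09 for Vdr to 0.042 for Dkk3 in limma.

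**Figure D5:**
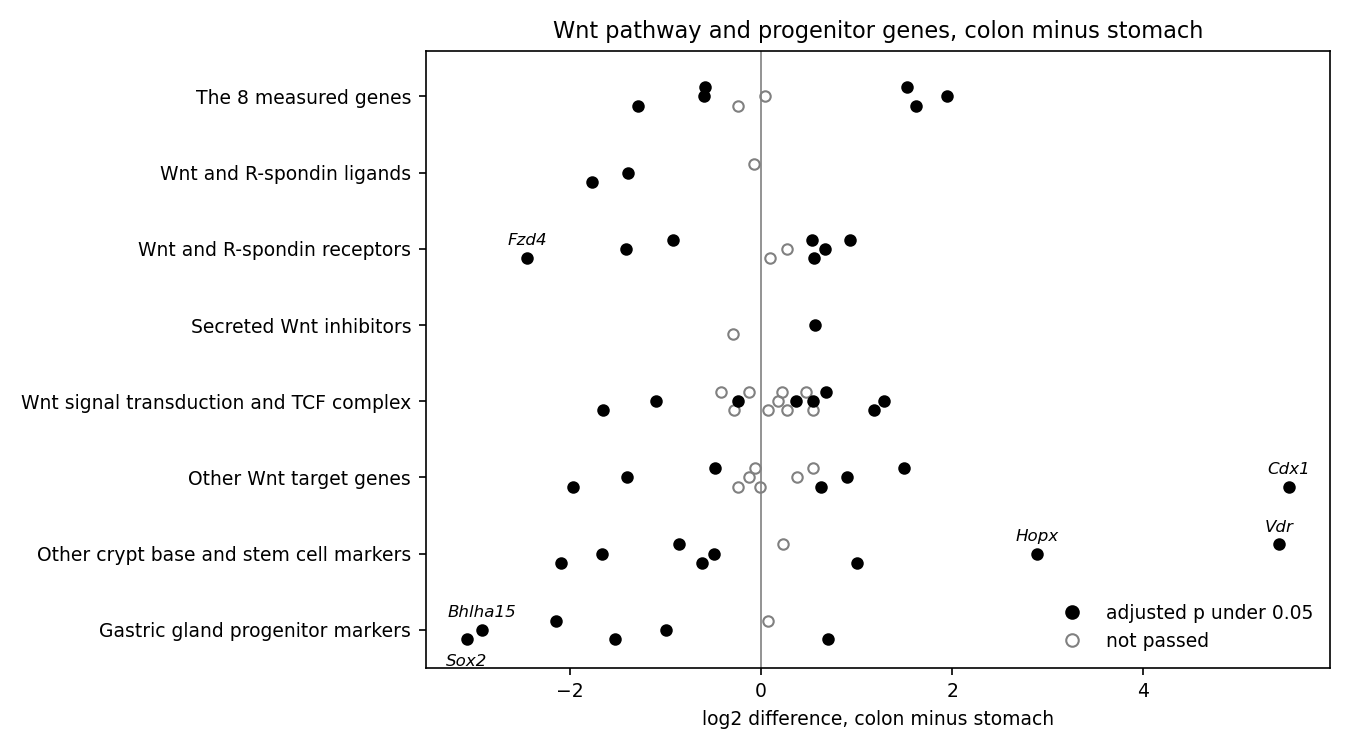
Log2 difference between colon and stomach over 3 genotypes for the 8 measured genes and for 7 lists of pathway, crypt and progenitor genes, each point a gene and filled where the adjusted p was under 0.05. Fitted differences are plotted, also where a tissue mean lay under the filter level. All lists with over 3 tested genes hold points on both sides of 0, with Cdx1 and Vdr farthest to the right and Sox2 farthest to the left.

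None of the genes of these 7 lists passed the test between genotypes in colon or in stomach (limma). In KO against WT colon the largest difference of each list was 0.45 for Wnt5a, 0.59 for Fzd8, -0.41 for Dkk3, 1.41 for Tcf7l1, 1.43 for Prom1 and 0.54 for Stmn1, besides Nkd2. Without colon WT 2 these were 0.48, 0.08, -1, 1.06, 0.08 and 0.31, so those of Fzd8 and Prom1 rested on that array. Tcf7l1 lay at 6.85 and 9.06 in KO, 7.27 and 7.41 in HET, and 6.89 and 6.20 in WT colon. Its high KO mean thus rested on colon KO 2, while colon KO 1 lay below both HET arrays and colon WT 1. Nkd2, which like Axin2 restrains Wnt signalling and is induced by it, lay at 5.62 and 5.80 in KO, 5.95 and 5.99 in HET, and 6.55 and 6.92 in WT colon. Its 4 KO and HET arrays were all under the filter level and below both WT arrays, an order that 6.13% of tested genes showed. Nkd2 thus passed the filter in colon only through the WT arrays, where it was high. In limma its unadjusted p was 0.0177 in KO (adjusted p = 0.4) and 0.0586 in HET (adjusted p = 0.517). Since the filter favoured this order, these values give no support to it or to the Axin2 pattern. In stomach the largest differences in KO against WT were -0.95 for Hopx and 0.79 for Iqgap3, with an adjusted p of 1 for both. Hopx lay at 6.83 and 7.11 in KO, 9.16 and 7.14 in HET, and 7.62 and 8.22 in WT stomach, highest on the array with the highest squamous genes, whose part was not tested.

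The genes most like Lgr5 over the 12 arrays, after each tissue's mean was taken away, were Fbp1, Chka and Slc7a8, with Pearson r of 0.978, 0.955 and 0.951. Without colon WT 2 these were 0.884, 0.688 and 0.668. For Ascl2 they were Ifi205, Fbxo31 and Rell2, with 0.87, 0.822 and 0.822, and 0.91, 0.818 and 0.875 without that array. The arrays share their groups and the Ascl2 levels in stomach lay under the filter level, so these values only describe likeness over these arrays.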

How the data were processed

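The authors deposited 1 linear intensity per probe set for each of 12 arrays. Per the submitters' processing notes, 9 arrays went through MAS5 and 3 through RMA (versions not given). Of 22626 probe sets left after 90 controls, 18003 had 1 gene, 287 several and 4336 none in the platform annotation, with symbols updated through RefSeq for 17977. A gene was represented by its brightest probe set. From the deposited intensities, log2(intensity + 16) was taken and quantile normalized. limma 3.58.1 in R 4.3.3 fitted 1 mean per group with an intensity trend (6 residual and 3.29 prior degrees of freedom), with Benjamini-Hochberg adjustment of p over all genes of a comparison, at 0.05. A mean under the filter level of 6.53 (intensity 76.5) was raised to it, array by array, for bounds. Named pathway genes were the called genes of each list, at most 4 with the largest difference, or the largest where none passed. The genes and lists were chosen with earlier results of these data known. The alternatives changed the normalization, the constant (1 or 64), the filter, the trend, the probe sets, the replicate block and the arrays. The procedure was tested on simulated data. Figures were drawn with matplotlib 3.10.9 in Python 3.11.15. Protein sequences were not used here.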

Additional observations from a re-analysis of the deposited data

Results flagged for a closer look

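For Ascl2 the KO minus WT difference was 0.43 in colon, where both KO arrays lay above both WT arrays, while in stomach both KO arrays, at 4.80 and 4.82, lay below both WT arrays, at 5.32 and 6.45. Both KO arrays lay above both WT arrays in colon for 20.4% of tested genes, and below them in stomach for 16.7%. The opposite directions in the 2 tissues drew attention to Ascl2. Its second probe set did not show them, at 0.02 in colon, with stomach means of 4.86 in KO and 4.80 in WT. The third had them under the filter level, with means of 6.1 and 5.44 in colon and 4.62 and 5.64 in stomach, for KO and WT. The difference between the tissues was not tested, because the stomach levels were under the filter level.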

How the results depend on the processing

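Over 21 alternatives, 511 of 536 values for the reported gene differences kept their direction and their side of the threshold, 10 passed it and 15 turned in sign. All 25 came from leaving out 1 array. Leaving out each array in turn, the count of the 8 genes called was 0 to 4 in KO and 0 to 5 in HET against WT colon, 0 to 2 for the KO effect between tissues, 3 to 5 in KO, 1 to 6 in HET and 1 to 5 in WT between tissues, and 6 to 7 over 3 genotypes. In WT between tissues it was 2 on values without quantile normalization, with no filter and with the replicate block. Over the same omissions, KO against WT colon ranged from -0.80 to 1.18 for Ephb3, -0.61 to 0.77 for Sox9, -0.18 to 0.84 for Lrig1 and -0.33 to 0.82 for Myc. HET against WT colon ranged from -0.84 to 1.15 for Ephb3, -0.51 to 0.86 for Sox9, -0.30 to 0.73 for Lrig1, -0.34 to 0.45 for Myc and -0.14 to 1.57 for Cd44. The tissue difference of Myc ranged from -0.15 to 0.24. Adjusted p-values of Axin2 ran from 0.236 to 0.783 in KO and 0.102 to 0.927 in HET over the alternatives. Counts over all genes moved most without colon WT 1, to 968 in KO and 1073 in HET against WT colon, where all arrays gave 4 and 2. They were 24 and 6 without colon WT 2, and at most 9 and 4 under the alternatives that kept all arrays. In stomach KO against WT, 1 gene was called, and 0 to 9 with an array left out. Same-numbered arrays had correlations of -0.32 to 0.29 within a tissue and of 0.02 to 0.08 across tissues of a genotype in their deviations from the group means, so the numbers were not taken as pairs. The cause of these changes was not tested.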
